A study of Mus musculus with 6 samples.

Results

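The 8 genes described here, Slc17a6, Tcf7l2, Prkcd, Rgs16, Ntng1, Zfhx3, Lhx9 and Lef1, were taken by name, as genes of the thalamus and of subcortical glutamatergic neurons, from a count table of 55604 gene identifiers. All 8 were present in the table, and 5 of them had enough reads to be tested. The libraries were made from brain RNA of C57BL/6 mice, 3 from mice given 4-aminopyridine (4-AP) by intraperitoneal injection and 3 from untreated mice, called controls here. 4-AP blocks voltage-gated potassium channels, and the series uses it as a model of status epilepticus, a seizure that does not end by itself. The RNA of all 6 libraries was digested with RNase R, an enzyme that removes linear RNA and leaves circles, so a gene's count holds both its circular reads and whatever linear reads were left. The labels used here do not state age, sex, the time after injection or which part of the brain was taken. No label says that the samples came from separate animals, so the p-values below measure the spread between these samples, which may be technical.

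The thalamus relays sensory and motor signals to the cortex, and its relay neurons are glutamatergic. They load glutamate into synaptic vesicles with the transporter VGLUT2, the product of Slc17a6, as do many neurons of the hypothalamus and brainstem, whereas most cortical and hippocampal neurons use VGLUT1, the product of Slc17a7. Tcf7l2 and Lef1 encode related HMG-box factors that act with beta-catenin in Wnt signalling; Tcf7l2 marks thalamic and habenular neurons but is also used by differentiating oligodendrocytes, and Lef1 is found in brain endothelium as well. Lhx9 encodes a LIM homeodomain factor of the developing thalamus, and Zfhx3 a large zinc finger and homeodomain factor of several subcortical regions. Prkcd encodes protein kinase C delta, abundant in thalamic relay neurons and in the central amygdala. Rgs16 encodes a protein that speeds up the GTPase of G protein alpha subunits, and Ntng1 encodes netrin-G1, an adhesion protein on thalamocortical axons.

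Tcf7l2 and Lef1 encode TCF/LEF factors and Lhx9 a LIM homeodomain factor, so motifs of these families were searched for. The search covered the 250 bases before each RefSeq start site (GRCm38.p6, the assembly of mm10). It used the TCF/LEF core CTTTGA on both strands and the palindromic LIM homeodomain core TAATTA. No motif was chosen for Zfhx3, which is also a homeodomain factor. The motifs do not overlap each other in the windows shown. The 8 genes have 14 such windows. The TCF/LEF core was in 3 of the 14, one each of Prkcd, Zfhx3 and Lef1, and in 13.8% of all 32851 windows of that length. TAATTA was in 1 window, of Slc17a6, and in 4.84% of all windows. Both windows of Slc17a6 are shown because it was the only one of the 8 genes with a TAATTA match. Those of Zfhx3 and Prkcd are shown because, among members with a TCF/LEF core, they had the highest scaled counts per kilobase of exon. Capitals mark the motif. The windows are chr7:51621580-51621829 (plus strand) and chr7:51624387-51624636 (plus strand) for Slc17a6, chr8:108714394-108714643 (plus strand) for Zfhx3 and chr14:30626211-30626458 (minus strand) for Prkcd, all in mm10. For Prkcd the last 2 bases before the start site are left out because GENCODE lists them as exon.
Slc17a6, first start: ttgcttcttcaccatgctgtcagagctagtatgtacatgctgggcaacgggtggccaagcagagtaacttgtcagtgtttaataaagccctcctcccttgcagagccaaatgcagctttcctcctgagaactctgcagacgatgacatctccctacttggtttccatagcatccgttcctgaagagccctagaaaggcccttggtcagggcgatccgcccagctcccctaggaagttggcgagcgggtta
Slc17a6, second start: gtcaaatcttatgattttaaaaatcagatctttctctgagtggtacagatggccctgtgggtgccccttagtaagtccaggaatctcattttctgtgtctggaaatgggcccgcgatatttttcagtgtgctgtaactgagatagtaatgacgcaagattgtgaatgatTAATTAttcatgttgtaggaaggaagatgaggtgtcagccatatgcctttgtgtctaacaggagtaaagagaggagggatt
Zfhx3: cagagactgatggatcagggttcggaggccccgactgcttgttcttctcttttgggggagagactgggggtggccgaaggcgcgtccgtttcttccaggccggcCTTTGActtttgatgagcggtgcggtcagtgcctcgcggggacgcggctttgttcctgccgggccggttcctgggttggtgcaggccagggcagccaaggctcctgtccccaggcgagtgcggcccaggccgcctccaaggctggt
Prkcd: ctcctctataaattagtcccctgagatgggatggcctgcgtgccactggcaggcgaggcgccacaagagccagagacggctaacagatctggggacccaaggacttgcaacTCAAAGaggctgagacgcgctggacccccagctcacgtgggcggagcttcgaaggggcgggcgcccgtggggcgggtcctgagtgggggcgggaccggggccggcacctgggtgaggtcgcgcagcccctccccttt
In the Prkcd window the capitals TCAAAG are the TCF/LEF core read on the other strand. Of the windows shown, the first of Slc17a6 holds neither core. A match is a description of the letters and says nothing about binding.

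The 4-AP libraries held between 1507882 and 2721287 counts, the controls between 2355610 and 3409055. Levels are given as CPM, the count divided by the library size, scaled by trimmed mean of M-values, times 1e+06. A count of 3, taken here as the floor of detection, corresponds to between 0.778 and 2.19 CPM depending on the library. Every pair of libraries differed by more than counting noise (chi-square of at least 8.62 per degree of freedom), so each was kept as a replicate. Between groups, 96 of the 11388 genes tested, or 0.843%, had an adjusted p below 0.05 (edgeR, quasi-likelihood, with Benjamini-Hochberg correction over every tested gene).

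Of the 5 tested members, 0 passed that test. At an unadjusted p under 0.05 the count was 1 (Ntng1), against 13.9% of all tested genes, and limma-voom called 1 (Zfhx3), against 0.623% of all genes it tested. DESeq2 called 0, though of the 5 it gave an adjusted p for Zfhx3 alone; it called 5.27% of the genes to which it gave one. All 5 had a positive log2 fold change, with a median of 0.93, beside a median of -0.00762 over all tested genes, 49% of which were above 0. The other 3, Tcf7l2, Lhx9 and Lef1, lay under the filter on low counts, and their group means were about equal or lower in 4-AP. Libraries of 1 group differed widely in these genes: in each of the 8, control replicate 1 was the highest control. In 7 of the 8, Slc17a6 being the exception, 4-AP replicate 1 was the lowest 4-AP library. Among all tested genes, control replicate 1 was the highest control in 35.6% and 4-AP replicate 1 the lowest 4-AP library in 31.2%. These are whole-tissue libraries, so fewer cells of a type and less RNA per cell cannot be told apart. Nor do the labels say that the same brain regions were taken from every mouse: marker lists of other regions, given at the end, also differed between replicates, so a difference in the regions a library holds and a difference in a gene's level within a region cannot be told apart for any of the 8 genes.

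**Figure D1:**
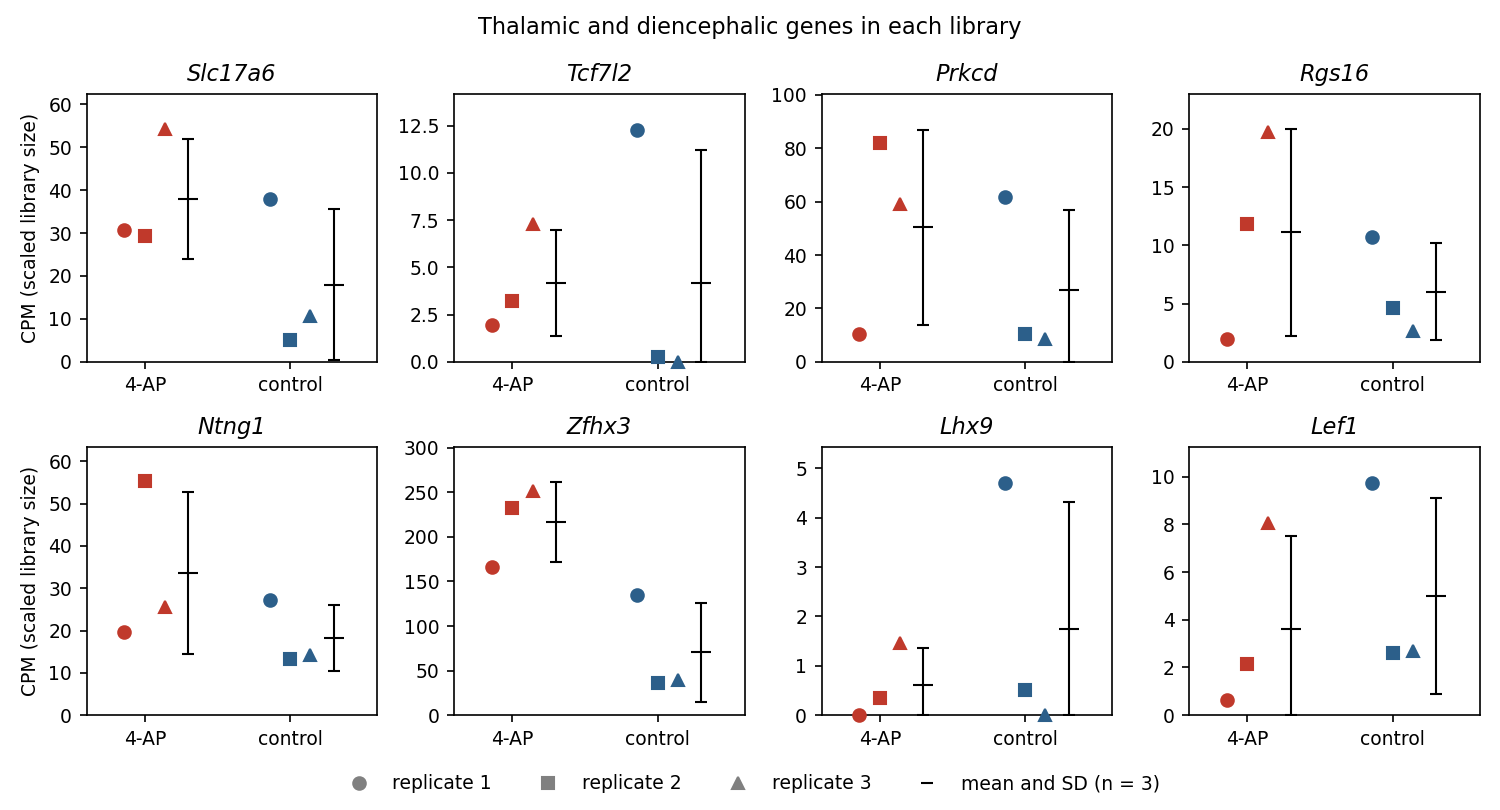
CPM of each of the 8 genes (y axis, linear, a separate scale per gene) in the 3 4-AP and 3 control libraries; symbols mark the replicate number, and black bars the mean and SD of 3 libraries, cut at 0. Control replicate 1 is above the other controls in every panel, and Zfhx3 is the gene whose groups do not overlap.

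Slc17a6 (chromosome 7, 51622006 to 51671119, plus strand) had 47, 82 and 74 counts with 4-AP and 121, 20 and 24 in controls. Scaled to library size these were 30.6, 29.3 and 54.1 CPM in 4-AP brain and 38.0, 5.19 and 10.7 CPM in control brain. The 4-AP libraries lay above control replicates 2 and 3, while control replicate 1 lay between them, so the groups overlapped. The mean was 38.0 ± 13.9 CPM in 4-AP and 18.0 ± 17.6 CPM in control brain (SD, n = 3 each). The log2 fold change was 1.05 (SE 0.82; 95% interval -1.13 to 3.22; edgeR adjusted p = 0.687). Without control replicate 1 it was 2.31 and passed (adjusted p = 0.00163 by edgeR's test), in a fit that called 1.38% of all tested genes; without control replicate 2 it was 0.59. Since that library differs in the very genes measured, leaving it out gives no independent support.

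The share of Slc17a6 among the counts of the 3 vesicular glutamate transporter genes (Slc17a6, Slc17a7 and Slc17a8) does not depend on the scaling of libraries; it was chosen after the values were seen. It was 4.27% (Wilson 95% interval 3.23 to 5.64), 4.73% (3.82 to 5.83) and 10.5% (8.42 to 12.9) in the 4-AP libraries. In the controls it was 3.87% (3.25 to 4.61), 0.532% (0.345 to 0.821) and 1.04% (0.701 to 1.55); intervals and floors cover counting error only. All 3 4-AP shares were above all 3 control shares, but 4-AP replicate 1 and control replicate 1 lay within each other's counting intervals. The means were 6.49 ± 3.45% and 1.82 ± 1.80% (SD, n = 3 each), and a two-sided exact permutation test gave p = 0.1, the smallest p that 3 against 3 libraries allow. The denominator is mostly Slc17a7, which fell from 964 to 558 CPM (log2 fold change -0.79, SE 0.15; adjusted p = 0.0142 by edgeR's test), so the share moves with both genes. Slc17a8, which encodes the third vesicular transporter, did not pass (0.75, SE 0.61).

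Zfhx3 (chromosome 8, 107942644 to 108961630, plus strand) carried the most reads of the 8 genes, between 89 and 652 counts per library. It stood at 166, 233 and 251 CPM in 4-AP brain and at 135, 36.6 and 39.7 CPM in control brain. It was the 1 member whose groups did not overlap, as they did not in 18.8% of all tested genes. The mean was 216 ± 44.9 CPM against 70.5 ± 56 CPM (SD, n = 3 each). The log2 fold change was 1.61 (SE 0.63; 95% interval -0.07 to 3.30; adjusted p = 0.381 by edgeR's test). Without control replicate 1 the log2 fold change was 2.52 and passed (adjusted p = 9.68e-07 by edgeR's test). With all 6 libraries limma-voom called it (1.87, adjusted p = 0.021), and DESeq2 did not (1.64, adjusted p = 0.105). Its relatives did not pass either, Zfhx4 being at 0.90 (SE 0.35) and Zfhx2 at -0.36 (SE 0.26). Zfhx4 was also highest among controls in replicate 1, at 74.5 CPM against 30.9 and 31.7 CPM.

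The factors Tcf7l2, Lef1 and Lhx9 had few reads. Tcf7l2 (chromosome 19, 55741820 to 55933654, plus strand) had 3, 9 and 10 counts in 4-AP libraries and 39, 1 and 0 in controls, so that 39 of its 40 control counts came from replicate 1. Its CPM were 1.96, 3.22 and 7.31 in 4-AP and 12.3, 0.259 and 0 in control brain, with nearly the same mean in both groups (4.16 ± 2.8 and 4.17 ± 7.0 CPM, SD, n = 3 each; exact permutation p = 1, two-sided). Control replicates 2 and 3 were both below the floor, and every 4-AP library was at or above it. Lef1 (chromosome 3, 131110471 to 131224356, plus strand) had 1, 6 and 11 counts in 4-AP and 31, 10 and 6 in control libraries. Its mean was 3.61 ± 3.91 CPM in 4-AP and 5.0 ± 4.1 CPM in control brain (SD, n = 3 each; p = 0.5 by the same exact permutation test). Its highest libraries were control replicate 1 (9.74 CPM) and 4-AP replicate 3 (8.04 CPM). Of its exonic bases 13.7% are shared with the antisense gene Gm43352, which had 16 counts in all, 9 of them in control replicate 1; without a stated strand setting their reads cannot be told apart. Lhx9 (chromosome 1, 138825186 to 138848577, minus strand) had 0, 1 and 2 counts in 4-AP and 15, 2 and 0 in control libraries. Only control replicate 1 was above the floor, at 4.71 CPM, and a group difference was not detectable at this depth (p = 0.7 by the exact permutation test).

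Wnt pathway genes were taken from a list made beside these factors. Of the 14 listed, 8 were tested, 0 were higher and 1 was lower, with a median log2 fold change of 0.14. The one that fell was Dkk3, a secreted Dickkopf-family gene, from 199 to 88.5 CPM (-1.19, SE 0.23; adjusted p = 0.021 by edgeR's test); this fall was known from earlier results. Ctnnb1, which encodes beta-catenin, was at 0.28 (SE 0.14). Axin2, a common beta-catenin target, was at 153, 92.9 and 152 CPM in 4-AP and 141, 67.2 and 68.3 CPM in control brain (0.51, SE 0.33). Its control replicate 1 was again the highest control, but the groups overlapped. The related factors Tcf7 and Tcf7l1 were under the filter, at 0.731 to 5.22 CPM and 0 to 2.33 CPM across the 6 libraries. Oligodendrocyte genes, which matter for Tcf7l2, summed to between 3070 and 4130 CPM in 4-AP libraries, with 0 of 12 tested members passing. In controls they summed to 4040 CPM in replicate 1 and to 2640 and 3510 CPM in the others. Control replicate 1 was the highest control for 10 of the 12, as it was for 35.6% of all tested genes. Endothelial genes, which matter for Lef1, summed to 125 to 173 CPM in 4-AP and 95.9 to 153 CPM in control libraries, with 0 of 9 passing. No marker of either list was at 0 in all libraries, and the part of these cells in the counts of Tcf7l2 and Lef1 was not tested.

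Prkcd (chromosome 14, 30595354 to 30626210, minus strand), the first of the signalling genes, varied widely between replicates. It was at 10.4, 81.8 and 59.2 CPM in 4-AP brain and at 61.6, 10.6 and 8.48 CPM in control brain. Both groups held low and high libraries: 4-AP replicate 1 lay with control replicates 2 and 3, and control replicate 1 with the other 4-AP libraries. The highest 4-AP library was 7.84 times the lowest and the highest control 7.27 times the lowest. The log2 fold change was 0.93 with an SE of 1.11 and a 95% interval from -2.08 to 3.94 (adjusted p = 0.808 by edgeR's test), so these libraries do not fix even its direction. It went from 0.36 without 4-AP replicate 2 to 2.42 without control replicate 1, and it passed in 0 of the 6 fits with 1 library left out.

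Rgs16 (chromosome 1, 153740349 to 153745468, plus strand) was at 1.96, 11.8 and 19.7 CPM in 4-AP and at 10.7, 4.67 and 2.68 CPM in control brain. Its 4-AP libraries held both the lowest and the highest value, a ratio of 10.1 that rests on 3 counts in the lowest. The log2 fold change was 0.84 (SE 0.64; 95% interval -0.57 to 2.26; adjusted p = 0.641 by edgeR's test), and it was 0.30 without 4-AP replicate 3. The antisense gene Gm28513, which shares 10.1% of the exonic bases of Rgs16, had 1 count in all. Relatives of the kinase and of the regulator with more reads did not pass. Prkca was at -0.39 (SE 0.16), Prkcb at -0.22 (SE 0.16) and Prkce at 0.06 (SE 0.14). Rgs4, a regulator abundant in cortex, was at -0.33 (SE 0.25) and Rgs7 at 0.21 (SE 0.16).

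Ntng1 (chromosome 3, 109780040 to 110144011, minus strand) overlapped between the groups as well. It was at 19.6, 55.4 and 25.6 CPM in 4-AP brain and at 27.3, 13.2 and 14.3 CPM in control brain. Only 4-AP replicate 2 stood clear of all controls, and control replicate 1 lay above the other 4-AP libraries. The log2 fold change was 0.93 (SE 0.41; 95% interval 0.02 to 1.84; adjusted p = 0.350 by edgeR's test). It was 0.32 without 4-AP replicate 2, and with no filter on low counts it passed (0.90, adjusted p = 0.0314 by edgeR's test), in a fit that called 1.27% of all tested genes. Lrrc4c, which encodes the ligand NGL-1 of netrin-G1, was at -0.31 (SE 0.19), and the paralogue Ntng2 at -0.28 (SE 0.23). Of the 18 relatives and partners listed for the 8 genes, 16 were tested, 0 were higher and 1 (Slc17a7) was lower, with a median of -0.25.

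**Figure D2:**
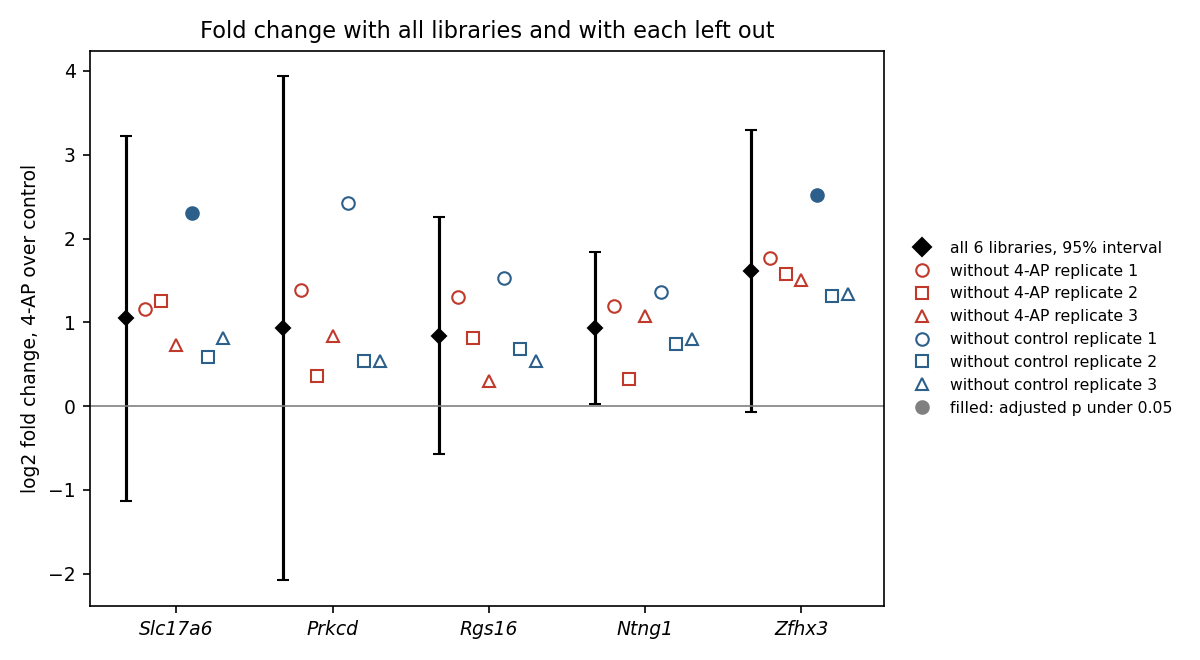
Log2 fold change of 4-AP over control (y axis) for the 5 tested genes: black diamonds with 95% intervals use all 6 libraries, and other symbols the fit without 1 library, filled where the adjusted p is under 0.05. Leaving out control replicate 1 gives the highest value for each gene, and the 2 filled points are Slc17a6 at 2.31 and Zfhx3 at 2.52.

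The spread between replicates can be put as the biological coefficient of variation (BCV), edgeR's estimate of the relative variation of a gene between libraries of 1 group beyond counting noise. It was 0.919 for Prkcd, 0.664 for Slc17a6, 0.515 for Zfhx3, 0.511 for Rgs16 and 0.331 for Ntng1. The median over all tested genes was 0.182. Of all tested genes, 99.9% had a lower BCV than Prkcd, 99.7% than Slc17a6, 99.4% than Zfhx3, 99.4% than Rgs16 and 96.1% than Ntng1. These values depend on the fit. With no robust fit the BCV was 0.511 for Prkcd, 0.388 for Slc17a6 and 0.3 for Zfhx3, and the share of genes below a member ran from 89% (Ntng1) to 99.9% (Prkcd). With no filter on low counts the median over all 25727 genes was 0.478, and Ntng1 (0.182) and Rgs16 (0.261) lay below it. Without control replicate 1 it dropped to 0.143 for Zfhx3 and 0.212 for Slc17a6, near the median of 0.174 in that fit. For Prkcd it was still 0.650 without that library, and 0.804 without 4-AP replicate 1. With replicate 1 of both groups left out, it was 0.162 for Prkcd and the log2 fold change of Prkcd was 2.87 (adjusted p = 0.000117 by edgeR's test). Slc17a6 (2.42), Zfhx3 (2.66) and Ntng1 (1.61) also passed there, and Rgs16 did not (1.98, adjusted p = 0.0782 by edgeR's test); the fit called 0.655% of all tested genes, 0.414% as higher. It has 2 libraries per group and was chosen with earlier results of these data known. It leaves out the highest control of every member and the lowest 4-AP library of all but Slc17a6, so larger fold changes follow from that choice and support nothing.

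**Figure D3:**
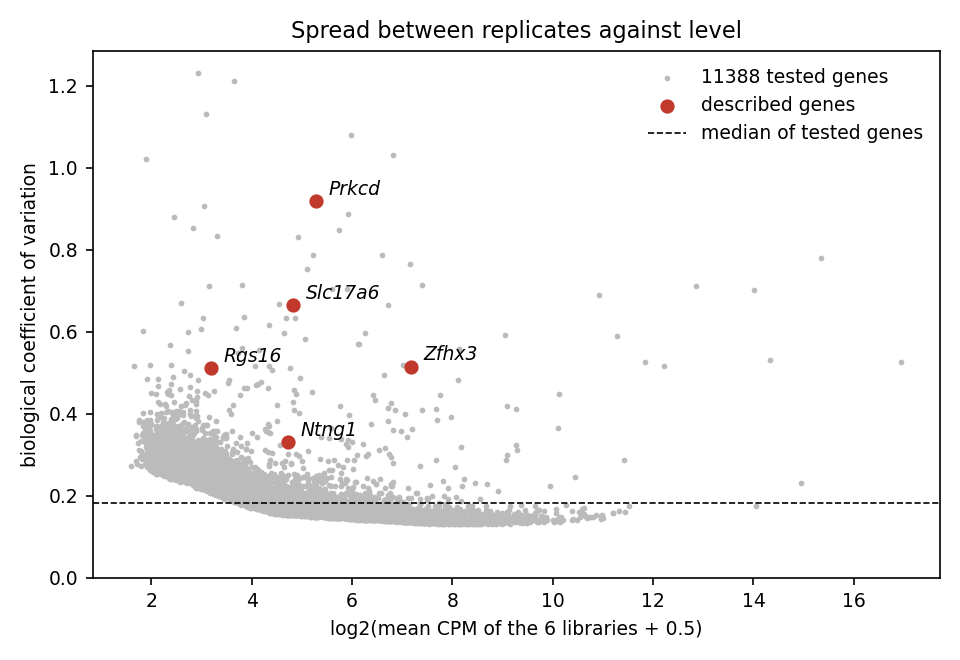
BCV (y axis) against log2 of the mean CPM of the 6 libraries plus 0.5 (x axis) for the 11388 tested genes (grey) and the 5 tested members (red); the dashed line is the median, 0.182. The 5 members lie above most genes of a similar level, from 0.331 for Ntng1 to 0.919 for Prkcd.

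Levels of different genes were compared per kilobase of merged exon. Counts hold circular reads as well as whatever linear reads were left, so this is an order of counts per annotated length and not of transcript levels. Averaged over the 6 libraries, Prkcd was at 6.98, Zfhx3 at 6.84 and Slc17a6 at 5.18 CPM per kb. Rgs16 followed at 3.67 and Ntng1 at 3.14 CPM per kb, and Lef1 (0.490), Tcf7l2 (0.475) and Lhx9 (0.124) were far lower. Most neighbours in this order did not differ beyond their spread: Prkcd was above Zfhx3 in 3 of 6 libraries, Zfhx3 above Slc17a6 in 4, Rgs16 above Ntng1 in 3 and Lef1 above Tcf7l2 in 3. Slc17a6 was above Rgs16 in 5 libraries, and Ntng1 was above Lef1 in all 6. The ranges over libraries were wide, from 1.53 to 14.8 CPM per kb for Prkcd and from 1.74 to 12.0 for Zfhx3.

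The genes most like each tested member in pattern were found by the root mean square difference of log2 CPM over the 6 libraries, each gene centred on its own mean. For Slc17a6 these were Etnppl (0.37), Zfhx3 (0.42) and Agt (0.42), with a median of 1.14 over all candidates. Etnppl and Agt are genes of astrocytes, Agt encoding angiotensinogen; Agt was at 42.4, 42.2 and 73.1 CPM in 4-AP and 34.9, 3.37 and 8.03 CPM in control brain. For Prkcd they were Rgs16 (0.58), the receptor tyrosine kinase gene Ret (0.66) and the calcium-binding protein gene Cabp7 (0.67). Cabp7 was at 75.4 CPM in control replicate 1 and at 7.52 and 12.0 CPM in the other controls. For Rgs16 they were Fgf22 (0.37), Ramp3 (0.45) and Prkab1 (0.48), of which Ramp3, a receptor activity-modifying protein gene, is on the list of other thalamic genes. Ntng1 was closest to Them4 (0.23), Mid1 (0.24) and Sec14l5 (0.25), and Zfhx3 to Zc3hav1 (0.33), Folh1 (0.37) and Zfp423 (0.38). None of these neighbours passed the test between groups. Among the 8 genes themselves the closest pairs were Slc17a6 with Zfhx3 (0.42) and Lhx9 with Lef1 (0.47), and the farthest Zfhx3 with Lef1 (1.36).

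The list of 16 other thalamic genes gave 13 tested members, of which 0 were higher and 0 lower, with 7 above 0 and a median of 0.04. The angiomotin family gene Amotl1 was at 0.83 (SE 0.20; adjusted p = 0.054) and Calb2, which encodes calretinin, at 1.76 (SE 0.93; adjusted p = 0.525). Lhx2 (-0.63, SE 0.23; adjusted p = 0.182) and Cacna1g, the T-type calcium channel of relay neurons (-0.18, SE 0.22; adjusted p = 0.795), were the negative members with the smallest p by edgeR's test. Control replicate 1 was the highest control in 12 of the 16. The change in level there was large for some, such as the actin-binding protein gene Synpo2, at 18.5 CPM against 2.07 and 4.02 CPM, and slight for Adarb1, at 331 CPM against 300 and 289 CPM. Shox2, a homeodomain factor of thalamic neurons, had 5.97 CPM in control replicate 1 and 0 in both other controls. In 4-AP brain Shox2 was at 1.30, 5.36 and 6.58 CPM, again lowest in replicate 1.

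Markers of other regions also differed between replicates, not always in the order of the genes described, and their part in the results was not tested. Control replicate 1 was low in striatal genes: the 9 markers summed to 144 CPM there and to 832 and 1390 CPM in the other controls, with 826 to 1210 CPM in the 4-AP libraries. Each of the 9 was lowest of all 6 libraries in control replicate 1, and Adora2a, an adenosine receptor gene of striatal neurons, was at 1.26 CPM against 56.8 and 108 CPM. Habenular genes summed to 86.1 CPM in control replicate 1, against 54.2 and 41.1 CPM in the other controls. In the 4-AP libraries they summed to 52.8, 50 and 47.5 CPM, with replicate 1 the highest of these. Most of the sum in control replicate 1 was Nwd2, at 45.3 CPM there and 19.7 to 40.4 CPM elsewhere. Pou4f1, a habenular factor, stood at 9.11 CPM in control replicate 1 and at 0 to 1.34 CPM elsewhere. Tac2 went the other way, at 0.314 CPM in that library and 0.519 to 8.04 CPM elsewhere. Control replicate 1 was the highest control for 7 of the 9 habenular genes, as it was for 35.6% of all tested genes. Midbrain and hindbrain genes summed to 22.9 CPM in control replicate 1 and to 2.33 and 1.79 CPM in the other controls. Of these, 3 of 14 (Slc6a2, Hoxb3 and Hoxb5) were at 0 in all libraries and none had enough reads to be tested. Among 4-AP libraries, replicate 1 was the lowest in these midbrain and hindbrain genes, as in most of the genes described, at 5.22 CPM against 26.4 and 16.1 CPM.

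Hypothalamic genes again had their highest control sum in replicate 1, but the sums of the 2 groups did not overlap. Their sums were 185, 134 and 244 CPM with 4-AP and 38.0, 20 and 29.5 CPM without, so that control replicate 1 stayed below every 4-AP library. Of 16 listed, 6 were tested and 5 rose (Oxt, Avp, Trh, Gpr101 and Magel2), while Pomc was at -0.60 (SE 1.14) and Ghrh was at 0 in all libraries. Those rises were known from earlier results and are not independent evidence. Cortical glutamatergic genes summed to 995 to 1340 CPM in 4-AP and 1750 to 1900 CPM in control libraries; 3 of 12 (Slc17a7, Nrgn and Neurod2) fell, and control replicate 1 (1790 CPM) was within the range of the other controls. Choroid plexus genes, markers of the epithelium of that tissue, summed to 18.3, 90.4 and 46.1 CPM in 4-AP and to 11.0, 4.15 and 14.7 CPM in control libraries. No marker of that list was at 0 throughout. The sum was highest in 4-AP replicate 2, where most of it was Ttr, at 55 CPM. That library was also the highest for Prkcd and Ntng1, but not for the other genes described. GABAergic reticular and prethalamic genes summed to 176 to 219 CPM in 4-AP libraries and were lowest in control replicate 1, at 97.1 CPM against 175 and 191 CPM. Most of each control sum was Meis2, at 58.1 CPM in replicate 1 against 122 and 134 CPM, so the sum mainly follows that gene. Of the 9 genes, 1 was highest among controls in replicate 1: Pvalb, at 17.6 CPM against 14.5 and 7.14 CPM. In that list 0 of 6 tested members passed, Isl1 being at 2.87 (SE 0.69; adjusted p = 0.054 by edgeR's test). Cerebellar genes were low in every library, summing to 56.2 to 110 CPM, and Gabra6, the granule cell receptor subunit, had 0 counts in all 6.

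**Figure D4:**
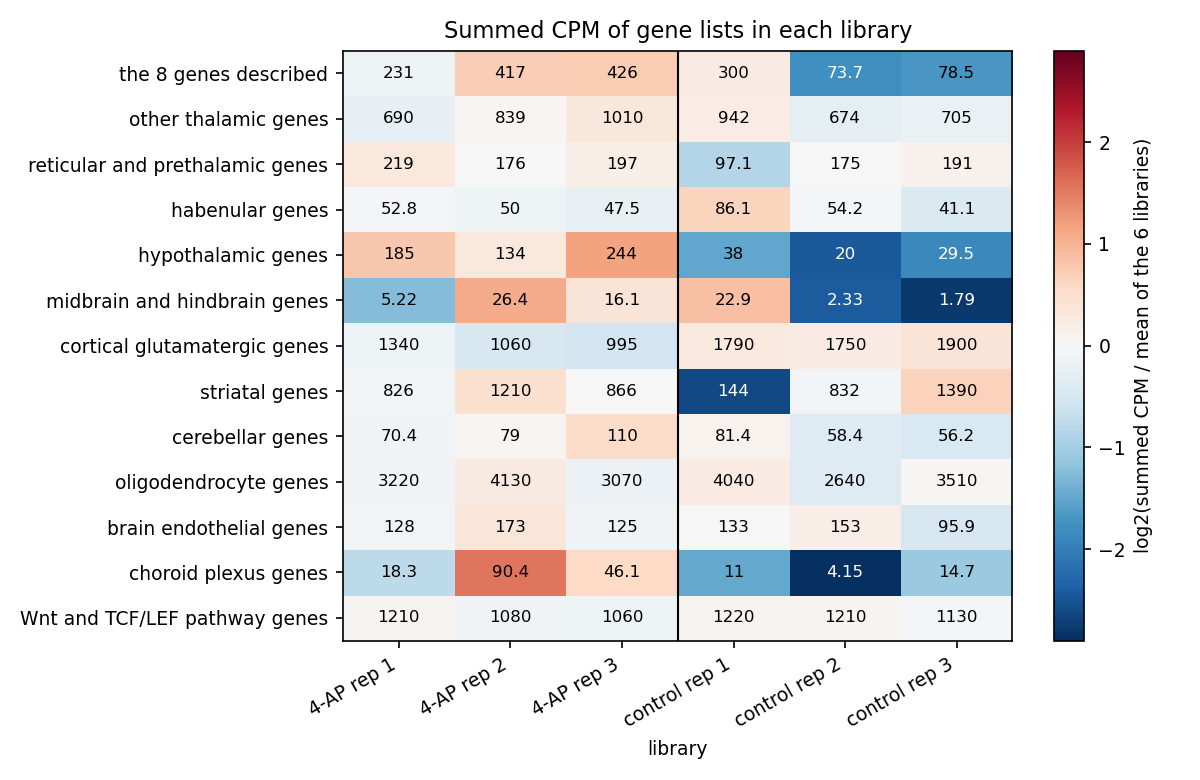
Summed CPM of the 8 genes and of 12 marker lists (rows) in each library (columns); the number in a cell is the sum in CPM, and its colour the log2 ratio to the mean of the 6 libraries. Control replicate 1 is at 300 CPM for the 8 genes, against 73.7 and 78.5 CPM in the other controls, and at 144 CPM for striatal genes, against 832 and 1390 CPM.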

How the data were processed

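Brain RNA digested with RNase R was sequenced in 6 libraries, per the labels' protocols. The authors deposited whole-number read counts per gene, for which the submitters' processing notes name STAR 2.5.3a, featureCounts and the build mm10. How multi-mapping reads were handled, the strand setting and the annotation release are not stated there. Of 55604 identifiers, 54809 matched GENCODE M21 (same assembly) without version; the rest carried 0.00715% of the counts. Gene coordinates and merged exon lengths come from GENCODE M21, and promoter sequences from RefSeq.

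Low genes were removed with filterByExpr (count 10, total 15), library sizes were adjusted with edgeR's trimmed mean (TMM) factors, and groups were compared in edgeR 4.0.16 under R 4.3.3 (quasi-likelihood test, robust fit, group as the only term; Benjamini-Hochberg, threshold 0.05). Members under the filter were compared by a two-sided exact permutation test of CPM, whose smallest p is 0.1. Alternatives used DESeq2 1.42.0, limma-voom (limma 3.58.1), other scalings and filters, a replicate block and left-out libraries. In simulated counts for this comparison (11388 genes), 59.4% of genes changed 2-fold and 95.9% of those changed 4-fold were called; these rates are over all genes and do not apply to the 5 tested members, whose replicates vary more.

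The 8 genes, the marker lists and the alternatives were chosen with earlier results of these data known. Genes were named by a rule: the members, from each list the 2 genes of smallest p in either direction (and all that passed), and the 3 genes most like each tested member among those with a mean of at least 10 counts per library, on log2 CPM with a prior count of 2. Other genes of the lists, among them paralogues and partners, Synpo2, Shox2, Adora2a, Pou4f1, Tac2, Adarb1, Slc17a8, Zfhx2, Meis2 and Gabra6, were named after their values were seen. One gene of the midbrain and hindbrain list is not reported here and was left out of its counts and sums.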

Additional observations from a re-analysis of the deposited data

How the results depend on the processing

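Among the 5 tested genes, positive directions held in all 17 alternatives. Zfhx3 was called with limma-voom (log2 1.87, 1 member called), against 0.623% of all tested genes. Ntng1 was called with no filter on low counts (0.90, 1 member called), against 1.27% of all tested genes. Without replicate 1 of both groups, Slc17a6 (2.42), Prkcd (2.87), Ntng1 (1.61) and Zfhx3 (2.66) were called, 4 members, against 0.655% of all tested genes, with a median of 2.42 and a median BCV of 0.207. The libraries left out were the highest controls and, but for Slc17a6, the lowest 4-AP libraries of these genes, so the choice itself raises the fold; the log2 ratio of group mean CPM was then 5.34 for Tcf7l2 (0 with all libraries), 1.81 for Lhx9 (-1.52) and 0.95 for Lef1 (-0.47). Without control replicate 1, Slc17a6 and Zfhx3 were called, 2 members, against 1.38% of all tested genes. With any 1 library left out, between 0 and 2 members were called, against 0.218% to 1.38% of all tested genes. In those fits the log2 fold change ran from 0.59 to 2.31 for Slc17a6, from 0.36 to 2.42 for Prkcd, from 0.30 to 1.53 for Rgs16, from 0.32 to 1.36 for Ntng1 and from 1.31 to 2.52 for Zfhx3, with a median over the 5 from 0.68 to 2.31 and a median BCV from 0.24 to 0.611. The log2 ratio ran from -0.69 to 5.01 for Tcf7l2, from -3.29 to 1.23 for Lhx9 and from -1.84 to 0.47 for Lef1, each highest without control replicate 1, and the difference in the Slc17a6 share from 2.68 to 5.78 percentage points. The cause was not tested.

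Over all genes, 38 higher and 58 lower genes (96) became 319 with total counts only (293 lower), 193 with DESeq2 (82 higher, 111 lower), 328 with no filter (131 and 197), 55 with no robust fit (25 and 30), 71 with limma-voom (31 and 40) and 76 without replicate 1 of both groups (48 and 28). With 1 library left out they ran from 26 to 159, from 16 to 105 higher and from 10 to 54 lower. With the replicate block there were 265 (112 higher and 153 lower), and the block called 0 members. Deviations from the group mean correlated at -0.00189, 0.113 and 0.0245 between same-numbered samples. Between differently numbered samples the correlations ran from -0.101 to 0.0636. The labels state no pairing, and so few libraries cannot settle whether there was one. DESeq2 gave an adjusted p for 1 of the 5 members, Zfhx3. Depth limits Tcf7l2, Lef1 and Lhx9 most, with 18 or more counts per group for the first pair but 3 in 4-AP for Lhx9.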
